A study of Homo sapiens with 16 samples.

Results

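The cytosolic heat shock system was followed through 10 of its genes in quiescent human U2OS cells, an osteosarcoma cell line, after treatment with a DYRK1A kinase inhibitor. The genes were taken by name from the deposited gene table: HSF1, HSPA1A, HSPA1B, HSPA8, HSPH1, DNAJA1, DNAJB1, HSP90AA1, HSPB1 and BAG3, which are 10 of its 59081 genes. Poly(A)-selected RNA was sequenced in 16 libraries, 4 in each of 4 groups: harmine hydrochloride at 10 µM, water (the vehicle of harmine), INDY at 25 µM, and DMSO (the vehicle of INDY). All cells, vehicle-treated ones included, had been kept without serum for 48 h, and compound or vehicle was present for 24 h. The study used harmine, a beta-carboline, and INDY, a benzothiazole derivative, to inhibit DYRK1A, a kinase needed to assemble the DREAM repressor complex. The doses and vehicles of the compounds differed, and every library came from this single cell line.

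Library totals lay between 44301910 and 65889667 estimated counts, and the 10 genes together took 0.438% to 0.644% of a library. Their joint share was 0.621% to 0.644% in INDY libraries, against 0.489% to 0.506% in DMSO libraries, and 0.438% to 0.451% in harmine libraries, against 0.463% to 0.497% in water libraries. Over all genes, water libraries 1 and 4 stood apart from water libraries 2 and 3 on the third principal component (26.6 and 34.6, against 4.35 and 3.94), which held 4.81% of the variance. The first component, which held 54.3%, set the INDY libraries (80.1 to 105.4) apart from all other libraries (-39.4 to -15.6). Within the INDY group, libraries 1 and 3 stood apart from libraries 2 and 4 on the first component (96.0 and 105.4, against 80.1 and 85.1). They did so on the third too (8.14 and 13.2, against -11.6 and -14.8). The labels give no batch, so results that rest on the water or INDY libraries were also computed with either pair alone. Of the mesenchymal and bone markers, VIM (1900 to 2890 CPM), SPARC (437 to 950 CPM), RUNX2 (19.4 to 51.2 CPM) and ALPL (2.68 to 22.8 CPM) were present in every library. COL1A2 did not pass 0.194 CPM and was at 0 in 1 library. The summed level of the 5 mesenchymal and bone markers was 3250 to 3340 CPM with harmine, 2600 to 2820 CPM with water, 3060 to 3470 CPM with INDY and 2850 to 3070 CPM with DMSO. The 3 epithelial markers EPCAM, CDH1 and KRT5 summed to 3.80 to 3.97 CPM with harmine, 4.20 to 4.42 CPM with water, 2.34 to 2.54 CPM with INDY and 3.38 to 3.92 CPM with DMSO, with KRT5 at 0 in 5 libraries. The 4 blood and endothelial markers PTPRC, CD3E, HBB and PECAM1 summed to between 1.64 and 4.47 CPM, with CD3E at 0 in 12 libraries and HBB at 0 in 10.

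The genes lie on 9 chromosomes of the GRCh38 build, with coordinates from GENCODE 44. HSF1 (ENSG00000284774) spans chr8:144291591-144314720, plus strand. The HSP70 copies HSPA1A (ENSG00000235941, chr6:31815543-31817946, plus strand) and HSPA1B (ENSG00000232804, chr6:31827738-31830254, plus strand) are neighbours, each of 1 exon. HSPA8 (ENSG00000109971) spans chr11:123057489-123063230, minus strand, and HSPH1 (ENSG00000120694) chr13:31134973-31162388, minus strand. DNAJA1 (ENSG00000086061) spans chr9:33025273-33039907, plus strand, and DNAJB1 (ENSG00000132002) chr19:14514769-14560391, minus strand. HSP90AA1 (ENSG00000080824) spans chr14:102080742-102139699, minus strand. HSPB1 (ENSG00000106211) spans chr7:76302673-76304295, plus strand, and BAG3 (ENSG00000151929) chr10:119651380-119677819, plus strand. The identifiers of HSF1, HSPA1A and HSPA1B in the table, printed above, were not in GENCODE 44, and these 3 genes were matched by symbol. Their positions are those of ENSG00000185122 (HSF1), ENSG00000204389 (HSPA1A) and ENSG00000204388 (HSPA1B).

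HSF1 is the main transcription factor of the heat shock response. In unstressed cells it is held inactive by chaperones, and when misfolded protein occupies them it forms trimers and binds heat shock elements, which are inverted repeats of the unit nGAAn. Its activity is set largely on the protein, so the level of its mRNA is not a measure of that activity. Among the chaperones, HSPA8 is the constitutive cytosolic HSP70 and HSPA1A and HSPA1B are the inducible ones. J-domain proteins such as DNAJA1 and DNAJB1 hand clients to HSP70 and stimulate its ATPase, while HSPH1 (an HSP110) and BAG3 release the nucleotide again. HSP90AA1 encodes the inducible HSP90, which matures kinases and receptors, and HSPB1 is a small heat shock protein that holds unfolding clients without ATP.

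The promoters of the 9 chaperone and co-chaperone genes are shown because the heat shock element is the sequence feature of heat-inducible genes. The window ran from 250 bases upstream to 50 bases downstream of the annotated start, and it was searched for an element of 2 units (GAANNTTC or TTCNNGAA, each its own reverse complement) and of 3 units (GAANNTTCNNGAA or TTCNNGAANNTTC, each the reverse complement of the other, so that both strands were covered). An element of 3 units also contains elements of 2 units. Of the 9 genes, 8 held an element of 2 units and 4 held an element of 3 units. In the windows of 19060 protein-coding genes the shares were 10.8% for 2 units and 0.352% for 3 units, and in those of the 14585 that were tested here they were 9.45% and 0.302%. BAG3 had no match in this window. The stretches below are on the gene's strand, 5′ to 3′, with the element in capitals and 12 flanking bases on each side, except that the DNAJA1 stretch, which crosses the start, was kept to 30 bases.
HSPA8 (chr11:123062167-123062203, minus strand): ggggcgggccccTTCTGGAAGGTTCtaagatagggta
HSPH1 (chr13:31161939-31161975, minus strand): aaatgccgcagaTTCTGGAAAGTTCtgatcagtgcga
HSP90AA1 (chr14:102087108-102087144, minus strand): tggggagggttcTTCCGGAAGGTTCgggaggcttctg
DNAJA1 (chr9:33025264-33025293, plus strand): gcgcgccgggcgGAACTTTCCAGAAcgctc
DNAJB1 (chr19:14518455-14518486, minus strand): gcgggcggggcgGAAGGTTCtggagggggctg
DNAJB1, a separate element (chr19:14518425-14518456, minus strand): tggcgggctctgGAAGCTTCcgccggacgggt
HSPB1 (chr7:76302479-76302510, plus strand): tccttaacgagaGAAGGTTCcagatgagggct

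The first 4 of these stretches hold 3 units and the others 2 units. The last base of the printed element stood 43 bases before the start in HSPA8, 47 in HSPH1 and 76 in HSP90AA1. In DNAJB1 the elements ended 70 and 40 bases before the start and in HSPB1 175 bases before it, whereas the 3-unit element of DNAJA1 lay just downstream of the start. Further elements in these windows are not printed: one of 3 units in HSPA8, ending 218 bases before the start, and ones of 2 units in HSPH1, DNAJA1 and HSP90AA1, ending 132, 191 and 61 bases before it. A match is a description of these letters and does not show that the site was bound.

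HSPA1A and HSPA1B are printed over 150 bases upstream of the start so that the copies can be compared there.
HSPA1A (chr6:31815393-31815542, plus strand): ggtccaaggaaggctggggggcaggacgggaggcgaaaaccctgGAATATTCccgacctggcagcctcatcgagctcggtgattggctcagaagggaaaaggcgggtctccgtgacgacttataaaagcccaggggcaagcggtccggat
HSPA1B (chr6:31827588-31827737, plus strand): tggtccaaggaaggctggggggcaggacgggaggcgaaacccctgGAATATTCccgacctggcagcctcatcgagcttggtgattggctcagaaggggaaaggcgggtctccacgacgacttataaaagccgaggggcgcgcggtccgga

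Both carried the same 2-unit element, in capitals, ending 99 bases before the start in HSPA1A and 98 bases before it in HSPA1B. Aligned end to end, the 250 bases upstream of the copies were 93.6% identical and their transcripts 91.2% identical. Gaps count as differences in these shares, and the transcripts differ in length (2400 bases for HSPA1A and 2517 for HSPA1B). Of all stretches of 100 nt (the read length) in the HSPA1A transcript, 72.4% also occurred in the HSPA1B transcript. A single read from such a stretch could come from either copy. Reads were paired, and the share of read pairs that the estimation divided between the copies was not computed. Part of the sequence of the copies also lies in a further gene model of the region (ENSG00000285565), which held 31.6% of the HSPA1A stretches and 34% of the HSPA1B stretches. HSP90AA1 shared 2.33% of its stretches with related pseudogenes and HSPB1 shared 6.05% with its pseudogene HSPB1P1, and the other 6 genes shared none. The copies are therefore given apart and as their sum.

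All 10 genes passed the filter on low counts and were detected in every library. Per length of transcript, HSPA8 stood highest in every group, with a mean of 697 CPM per kb with harmine, 746 with water, 982 with INDY and 784 with DMSO. HSP90AA1, HSPB1 and DNAJA1 followed in that order in the water libraries, at 392, 268 and 185 CPM per kb, and their library values did not overlap. HSF1 (113 CPM per kb) and HSPA1A (101) came next in water libraries. DNAJB1 (75.2 CPM per kb in water libraries) and HSPA1B (69.5) overlapped there and were not ordered. HSPH1 (48.9 CPM per kb) and BAG3 (22.5) were the lowest in water libraries. In INDY libraries HSPA1A (147 CPM per kb) stood above HSF1 (119), the reverse of their order in water libraries, without overlap in either group. The inducible HSP70 genes were expressed in every vehicle library, and the labels describe no heat treatment.

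INDY was followed by higher mRNA of all 9 chaperone and co-chaperone genes, whereas harmine raised 4 of the 10 genes and lowered 4. With INDY the 9 genes rose by 1.19-fold (DNAJA1) to 1.47-fold (HSPH1) over DMSO, and HSF1 itself was not called. With harmine HSF1, HSPA1A, BAG3 and HSPB1 rose by 1.12-fold to 1.19-fold over water, while HSPH1, DNAJB1, HSP90AA1 and DNAJA1 fell to between 0.823 and 0.890 of water. HSPA1B and HSPA8 were not called with harmine. Calls used edgeR's quasi-likelihood test on all 20446 genes that passed the filter, with Benjamini-Hochberg adjustment and a threshold of 0.01. Log2 fold changes are treated over own vehicle, with the standard error (SE) and n = 4 libraries a group throughout.

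These counts stand beside a transcriptome in which much was called. With INDY, 33.2% of all tested genes were higher and 33.4% lower, 66.6% in all, beside 9 and 0 of the 10 genes. With harmine, 24.9% of all tested genes were higher and 22.8% lower, 47.7% in all, beside 4 and 4. The median log2 fold change of the 10 genes was 0.43 with INDY, against -0.01 over all tested genes, and -0.003 with harmine, against 0.02. Without regard to direction, their median absolute log2 fold change was 0.43 with INDY, against 0.43 over all genes, and 0.18 with harmine, against 0.26 over all genes. No gene of the 10 passed 1.5-fold with either compound, as 33.7% of all tested genes did with INDY and 16.3% with harmine. Every INDY library lay above every DMSO library for 9 genes (33.4% of all tested genes), and harmine and water libraries did not overlap for 9 genes (55.1% of all tested genes), 4 above (28.6%) and 5 below (26.4%). Levels are shares of each library's RNA from bulk cells, so more cells carrying a transcript and more transcript per cell cannot be told apart.

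**Figure D1:**
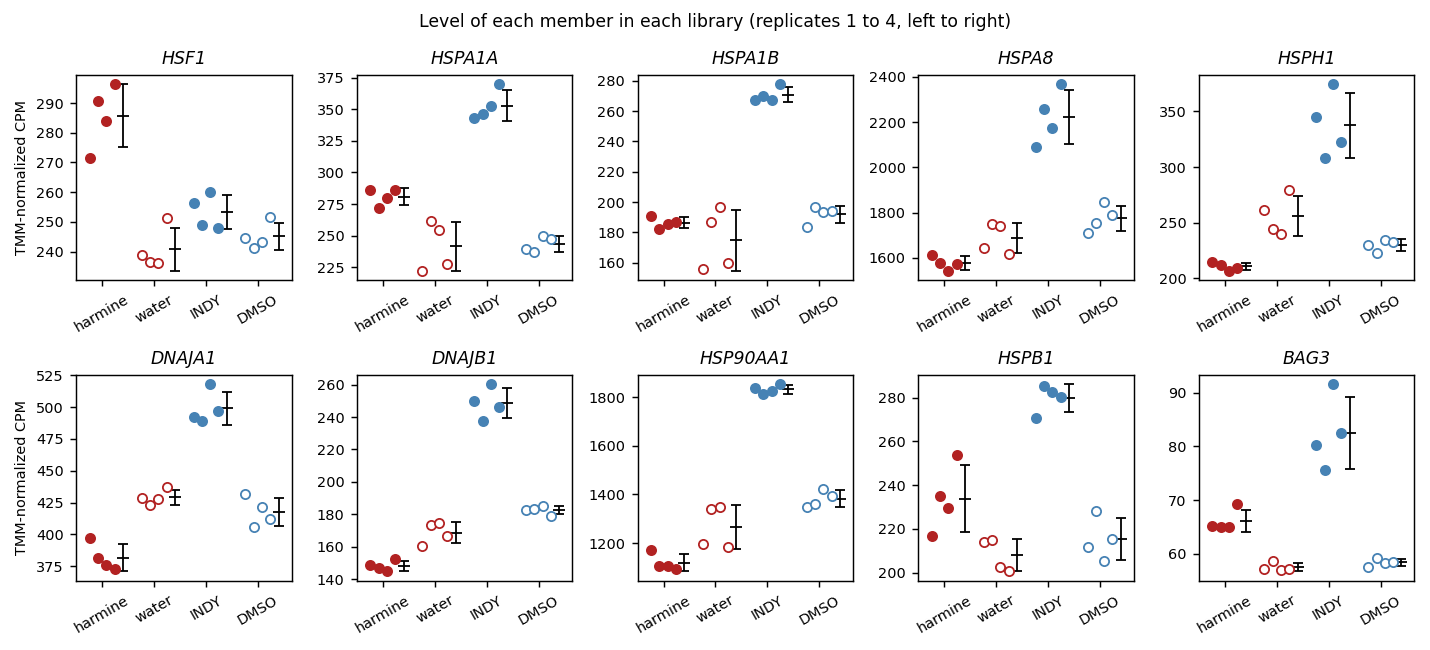
Each panel is a gene, the vertical axis is its TMM-normalized CPM on its own scale (axes do not start at 0), points are the 4 libraries of each group (replicates 1 to 4, left to right) and bars are the mean ± SD. All INDY points (filled blue) lie above all DMSO points (open blue) except for HSF1, whereas the harmine points (filled red) lie above the water points (open red) for HSF1, HSPA1A, HSPB1 and BAG3 and below them for HSPA8, HSPH1, DNAJA1, DNAJB1 and HSP90AA1.

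HSF1, the transcription factor, was the gene of the 10 that was called with harmine and not with INDY. It had 272, 291, 284 and 296 CPM in the harmine libraries, against 239, 237, 236 and 251 CPM in the water libraries. No harmine library reached down to the water range, and the log2 fold change was 0.25 (SE 0.030, edgeR adjusted p = 1.33e-06). In INDY libraries HSF1 had 256, 249, 260.2 and 248 CPM, against 245, 241, 243 and 252 CPM in DMSO libraries. These ranges overlapped, with a log2 fold change of 0.05 (SE 0.030, edgeR adjusted p = 0.169) and a 95% interval of -0.02 to 0.11. The harmine effect was larger than the INDY effect by 0.20 (SE 0.043, edgeR adjusted p = 0.000504) on the log2 scale. With only water libraries 1 and 4, this difference was 0.16 with an edgeR adjusted p of 0.0111 and was no longer called, while the harmine effect itself stayed called at 0.20.

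HSPA1A and HSPA1B, the inducible HSP70 genes, rose together with INDY. HSPA1A had 343, 346, 352 and 370.0 CPM in INDY libraries, against 239.8, 237, 250.1 and 248 CPM in DMSO libraries, a log2 fold change of 0.53 (SE 0.043, edgeR adjusted p = 1.99e-09). HSPA1B had 267, 270.1, 268 and 278 CPM in INDY libraries, against 184, 197, 194 and 194 CPM in DMSO libraries, a log2 fold change of 0.50 (SE 0.054, edgeR adjusted p = 1.21e-07). The lowest INDY library was well above the highest DMSO library for both copies. With harmine, HSPA1A had 286, 272, 280.0 and 286 CPM, against 222, 261, 255 and 228 CPM with water, a log2 fold change of 0.22 (SE 0.043, edgeR adjusted p = 0.000295). HSPA1B had 191, 183, 185 and 187 CPM with harmine, against 156, 187, 197 and 159.7 CPM with water, and was not called at 0.09 (SE 0.054, edgeR adjusted p = 0.159). Its harmine libraries fell inside the water range, because water libraries 2 and 3 were high and water libraries 1 and 4 low.

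The harmine result for this pair of genes turned on which water libraries were used. Against water libraries 2 and 3 alone, the log2 fold change was 0.12 for HSPA1A (edgeR adjusted p = 0.00915) and -0.04 for HSPA1B (edgeR adjusted p = 0.339). Against water libraries 1 and 4 alone, it was 0.30 for HSPA1A and 0.22 for HSPA1B, both called. The sum of the copies does not depend on how reads were divided between them, but it still depends on their division with ENSG00000285565, whose counts were not added. The sum was 477, 454, 465 and 473 CPM with harmine, against 378, 448, 452 and 387 CPM with water. Its log2 fold change with harmine was 0.17 (SE 0.046, edgeR adjusted p = 0.00480), but 0.05 (edgeR adjusted p = 0.167) with only water libraries 2 and 3, and leaving out any of 7 single libraries (water library 1 or 4, any harmine library or DMSO library 3) also lost the call. With INDY the sum was 610.5, 616, 619.8 and 648 CPM, against 423, 434, 444 and 441 CPM with DMSO, a log2 fold change of 0.52 (SE 0.046, edgeR adjusted p = 7.77e-09). HSPA1A took 54.7% to 60.5% of the sum across the 16 libraries, the highest shares being those of the 4 harmine libraries.

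HSPA8, the constitutive HSP70, rose 1.25-fold with INDY. It had 2089.7, 2257, 2174 and 2369 CPM in INDY libraries, against 1711, 1756, 1845 and 1788 CPM in DMSO libraries, a log2 fold change of 0.32 (SE 0.036, edgeR adjusted p = 1.80e-07). With harmine it had 1614, 1578, 1542 and 1575 CPM, against 1644, 1751, 1739 and 1619 CPM with water. All 4 harmine libraries were below the water libraries, but by as little as 1614 against 1619 CPM, and the log2 fold change of -0.10 (SE 0.036, edgeR adjusted p = 0.0274) missed the threshold. It passed with DESeq2 (-0.11, adjusted p = 0.00983), without the filter, in the fit of only the 8 harmine and water libraries, with only water libraries 2 and 3, with either INDY pair alone, and without INDY library 4.

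HSPH1, the HSP110 that recycles HSP70, had the largest estimated effect of the 10 genes with either compound when all libraries were used, in opposite directions. It had 345, 308, 375 and 322 CPM in INDY libraries, against 230.0, 223, 234 and 233 CPM in DMSO libraries, a log2 fold change of 0.55 (SE 0.051, edgeR adjusted p = 1.32e-08). With harmine it had 215, 212, 207 and 209.7 CPM, against 262, 244, 239.6 and 279 CPM with water, a log2 fold change of -0.28 (SE 0.052, edgeR adjusted p = 0.000123). INDY libraries 1 and 3 were higher than INDY libraries 2 and 4, as water libraries 1 and 4 were higher than water libraries 2 and 3, yet neither spread closed the gap to the other group. With either water pair alone HSPH1 was still called lower with harmine, at -0.20 (pair 2 and 3) and -0.38 (pair 1 and 4). Its place in the order was not kept with fewer libraries: with only water libraries 2 and 3, HSF1 (0.27), HSP90AA1 (-0.26) and DNAJB1 (-0.23) had larger harmine effects, and with only INDY libraries 2 and 4, HSPA1A had the larger INDY effect (0.56, against 0.46 for HSPH1). HSF1 also led with harmine without water library 4, and HSPA1A with INDY without INDY library 1 or 3.

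Both J-domain genes, the co-chaperones that bring clients to HSP70, were higher with INDY and lower with harmine. DNAJB1, the strongly heat-inducible HSP40, had 249.7, 238, 260.3 and 246 CPM in INDY libraries, against 183, 183, 185 and 179 CPM in DMSO libraries, a log2 fold change of 0.44 (SE 0.032, edgeR adjusted p = 3.42e-10). With harmine DNAJB1 had 149, 147, 145 and 152 CPM, against 160.3, 174, 174 and 166 CPM with water, a log2 fold change of -0.19 (SE 0.032, edgeR adjusted p = 5.75e-05). Neither comparison had overlapping libraries. DNAJA1, which supports folding and import of new proteins, had 492, 489, 518 and 497 CPM with INDY, against 431, 406, 422 and 412 CPM with DMSO, a log2 fold change of 0.26 (SE 0.028, edgeR adjusted p = 1.07e-07). With harmine DNAJA1 had 397, 381, 376 and 373 CPM, against 429, 423, 428 and 437 CPM with water, a log2 fold change of -0.17 (SE 0.028, edgeR adjusted p = 4.01e-05). DNAJA1 was the steadiest of the genes in water libraries after BAG3, with an SD of 1.38% of its mean, and its calls held when any single library was left out.

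HSP90AA1, the inducible HSP90, followed the same pattern as the J-domain genes. It had 1838, 1811, 1823 and 1853 CPM in INDY libraries, against 1348, 1361, 1424 and 1394 CPM in DMSO libraries, a log2 fold change of 0.41 (SE 0.039, edgeR adjusted p = 1.80e-08). With harmine it had 1170.1, 1106, 1106 and 1094 CPM, against 1197, 1341, 1347 and 1182 CPM with water, a log2 fold change of -0.18 (SE 0.039, edgeR adjusted p = 0.000597). Water libraries 1 and 4 sat just above the harmine libraries, whereas water libraries 2 and 3 were far above them. Against water libraries 1 and 4 alone the log2 fold change was -0.10 (edgeR adjusted p = 0.0112) and not called, and against water libraries 2 and 3 alone it was -0.26 and called.

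HSPB1 and BAG3, a small heat shock protein and an HSP70 exchange factor that links HSP70 to small heat shock proteins, were higher with both compounds. HSPB1 had 271, 286, 283 and 280.4 CPM in INDY libraries, against 212, 228, 206 and 215 CPM in DMSO libraries, a log2 fold change of 0.38 (SE 0.042, edgeR adjusted p = 1.48e-07). BAG3 had 80.2, 75.6, 91.6 and 82.4 CPM in INDY libraries, against 57.5, 59.3, 58.3 and 58.4 CPM in DMSO libraries, a log2 fold change of 0.50 (SE 0.043, edgeR adjusted p = 5.09e-09). The INDY and DMSO ranges were well apart for both. With harmine BAG3 had 65.3, 64.9, 65.0 and 69.3 CPM, against 57.2, 58.6, 57.0 and 57.2 CPM with water, a log2 fold change of 0.20 (SE 0.043, edgeR adjusted p = 0.000618). HSPB1 had 217, 235, 229.7 and 254 CPM with harmine, against 214, 215, 203 and 201 CPM with water, a log2 fold change of 0.17 (SE 0.042, edgeR adjusted p = 0.00209). The lowest harmine library for HSPB1 was only just above the highest water library, and the call was lost without harmine library 2 (0.15), harmine library 4 (0.11) or water library 3 (0.14), and with either water pair alone (0.16 for each).

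**Figure D2:**
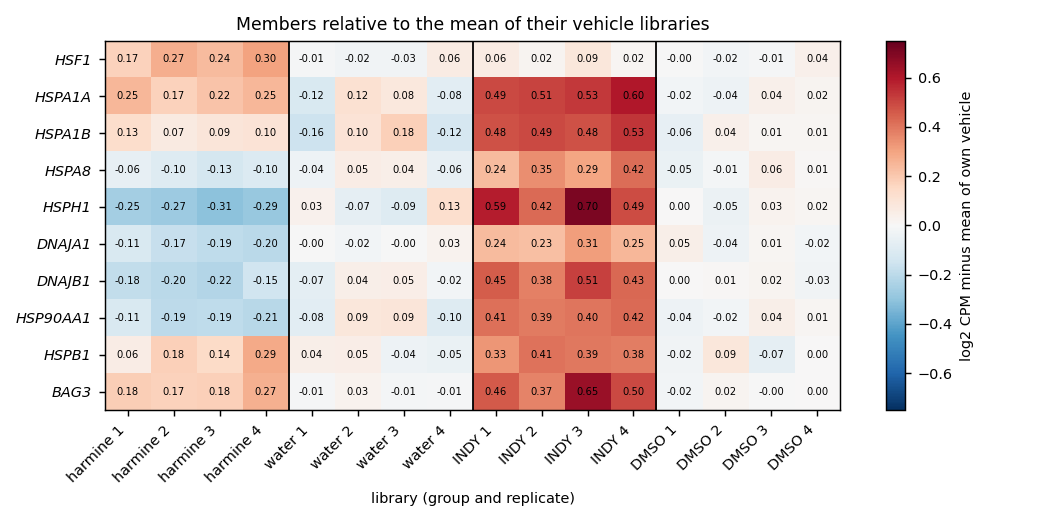
Each cell is a gene (rows) in a library (columns, grouped as harmine, water, INDY and DMSO), and its colour and number give the log2 CPM minus the mean of that library's own vehicle group. The INDY columns are red for all genes but HSF1 (0.02 to 0.09), the harmine columns are blue for HSPA8, HSPH1, DNAJA1, DNAJB1 and HSP90AA1, and water libraries 2 and 3 are above water libraries 1 and 4 for HSPA1A, HSPA1B, HSPA8, DNAJB1 and HSP90AA1 and below them for HSF1, HSPH1 and DNAJA1.

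The effects of the compounds differed for all 10 genes when the difference itself was tested, beside 54.5% of all tested genes (28.1% higher and 26.4% lower with harmine relative to INDY). The harmine effect was the larger for HSF1 only and the smaller for the other 9. The difference was most negative for HSPH1 at -0.84 (SE 0.073, edgeR adjusted p = 1.32e-08), followed by DNAJB1 at -0.63 (SE 0.045, edgeR adjusted p = 9.38e-10) and HSP90AA1 at -0.59 (SE 0.055, edgeR adjusted p = 3.18e-08). These 3 were also the ones that passed 1.5-fold, as did 29.1% of all tested genes. HSP90AA1 passed it narrowly, and its difference ranged from -0.62 to -0.57 when single libraries were left out. With only water libraries 1 and 4 it was -0.51, short of 1.5-fold. DNAJA1, HSPA8, HSPA1B and HSPA1A had differences of -0.43, -0.42, -0.40 and -0.32, and BAG3 had -0.30. HSPB1 had the least negative difference, -0.21 (SE 0.059, edgeR adjusted p = 0.00447), which was no longer called without water library 1 (-0.20), without DMSO library 1 (-0.20) or with only water libraries 2 and 3 (-0.21). In all, 4 genes (HSPH1, DNAJA1, DNAJB1 and HSP90AA1) were called lower with harmine and higher with INDY, as were 4.55% of all tested genes, and 3 (HSPA1A, HSPB1 and BAG3) were called higher with both, as were 12.1%. The 4 genes with opposite calls include 3 of the 4 with a 3-unit element in the window shown above. HSPA8, with 2 such elements, was not among them, whereas DNAJB1, with 0, was. A link between element and direction was not tested. Doses, vehicles and chemical structures differed together, so what the difference belongs to cannot be told apart.

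**Figure D3:**
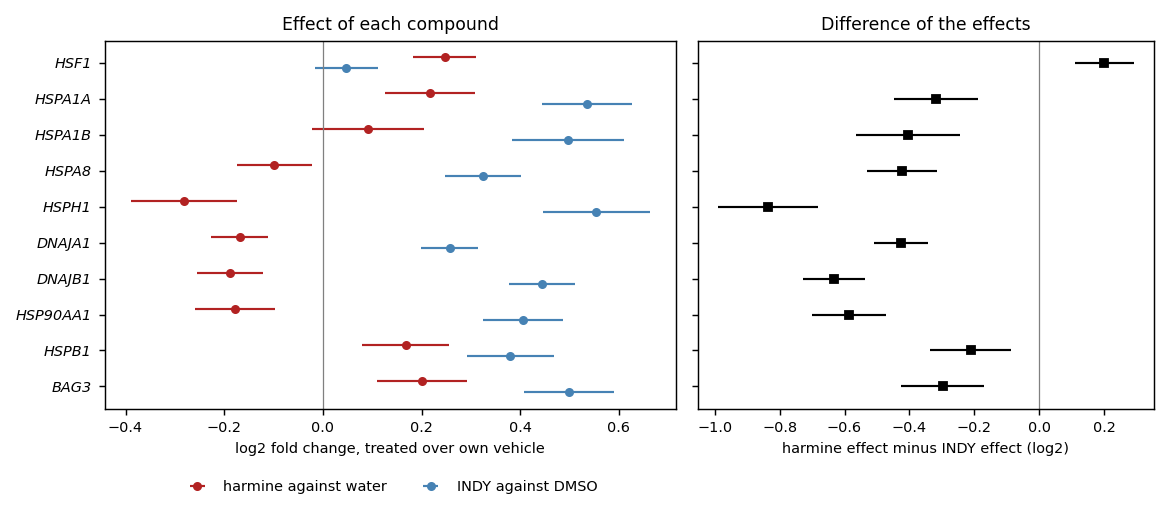
Points are log2 fold changes and lines their 95% intervals from the edgeR model, with harmine against water in red and INDY against DMSO in blue (left), and the harmine effect minus the INDY effect in black (right). The INDY points lie at 0.26 to 0.55 for 9 genes, the harmine points fall on either side of 0 between -0.28 and 0.25, and the difference is above 0 for HSF1 (0.20) and below 0 for the rest.

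The vehicle groups were compared to see how far the genes differed without a compound. No gene of the 10 was called between DMSO and water by edgeR, against 4.29% of all tested genes (1.58% higher and 2.71% lower), although 4 had an unadjusted p under 0.05 and DESeq2 called 1 (DNAJB1, log2 fold change 0.12, adjusted p = 0.00692). The 4 were HSPA1B (0.13), DNAJB1 (0.11) and HSP90AA1 (0.13), higher with DMSO, and HSPH1 (-0.16), lower. DMSO and water libraries did not overlap for 3 genes (19.9% of all tested genes), DNAJB1 and HSP90AA1 with DMSO above (9.76%) and HSPH1 with DMSO below (10.2%). With only water libraries 1 and 4, all 4 of these differences were called (log2 fold changes of 0.28, 0.16, 0.22 and -0.23 in the order given), 3 higher and 1 lower, beside 7.58% of all genes tested in that fit (3.14% higher and 4.44% lower). With only water libraries 2 and 3 none of the 4 was called, at 0.001, 0.07, 0.04 and -0.07 in the same order. The values from all libraries and from water libraries 1 and 4 are close in size to several harmine effects. Their part in the harmine comparison was not tested.

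Around these genes, 106 further genes of the pathway were followed in 10 lists, of which 96 passed the filter, and some stand in more than 1 list. With INDY 49 of the 96 were higher and 31 lower, with a median log2 fold change of 0.10, and with harmine 23 were higher and 36 lower, with a median of -0.02. Over all tested genes, 33.2% were higher and 33.4% lower with INDY, and 24.9% higher and 22.8% lower with harmine. In either direction 83.3% of the 96 were called with INDY, against 66.6% of all genes, and 61.5% with harmine, against 47.7%. The counts of each list below are to be read beside these shares over all genes. The other heat-inducible genes did not move as a block. Of 21 tested, 10 were higher, 7 lower and 4 not called with INDY (median 0.09), and 4 were higher, 9 lower and 8 not called with harmine (median -0.07). ZFAND2A, an arsenite- and heat-inducible proteasome partner, had 22.7 ± 2.37 CPM with INDY, against 12.1 ± 0.467 CPM with DMSO, a log2 fold change of 0.91 (SE 0.068, edgeR adjusted p = 5.57e-10). SQSTM1, the autophagy receptor p62, was lower with harmine, at 391 ± 3.79 CPM against 685 ± 59.6 CPM with water (log2 fold change -0.81, SE 0.053, edgeR adjusted p = 3.38e-10), and with INDY (log2 fold change -0.25, SE 0.053, edgeR adjusted p = 0.000251). HSPA6, the HSP70 known to be almost silent without heat, was low in every group, at 2.34 ± 0.435 CPM with INDY, against 2.85 ± 0.151 CPM with DMSO, and was not called at -0.29 (SE 0.126, edgeR adjusted p = 0.0419). It was lower with harmine, at 1.95 ± 0.154 CPM against 2.73 ± 0.400 CPM with water (log2 fold change -0.49, SE 0.128, edgeR adjusted p = 0.00318), a call that was lost without water library 3 (-0.39).

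Among the other 7 tested HSP70 and HSP110 genes, 2 were higher and 3 lower with INDY (median -0.23), and 0 were higher and 2 lower with harmine (median -0.09). HSPA4, an HSP110 like HSPH1, rose with INDY to 537 ± 8.90 CPM, against 404 ± 7.33 CPM with DMSO (log2 fold change 0.41, SE 0.026, edgeR adjusted p = 7.34e-11). HSPA1L, the testis HSP70 next to HSPA1A, fell with INDY to 1.66 ± 0.340 CPM, against 6.11 ± 0.139 CPM with DMSO (log2 fold change -1.89, SE 0.110, edgeR adjusted p = 1.90e-11), the direction opposite to HSPA1A. HSPA2, another testis HSP70, was called higher with INDY on 66 estimated counts in all, against 14 with DMSO (log2 fold change 2.22, SE 0.462, edgeR adjusted p = 0.000270). HSPA12A and HSPA14 were the other genes lower with INDY (-0.26 and -0.23). HSPA13, a microsomal relative, was lower with harmine, at 76.2 ± 0.504 CPM against 106 ± 3.28 CPM with water (log2 fold change -0.48, SE 0.034, edgeR adjusted p = 8.86e-10).

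Of 14 other cytosolic J-domain genes, 8 were higher and 4 lower with INDY (median 0.14), and 3 were higher and 7 lower with harmine (median -0.12). DNAJB2, which passes clients to the proteasome, had the same directions as DNAJB1, at 429.6 ± 47.9 CPM with INDY, against 266 ± 15.0 CPM with DMSO (log2 fold change 0.69, SE 0.064, edgeR adjusted p = 1.22e-08), and 181 ± 5.61 CPM with harmine, against 278 ± 20.5 CPM with water (log2 fold change -0.62, SE 0.064, edgeR adjusted p = 1.50e-07). DNAJB5 was lower with both compounds, at 32.5 ± 4.26 CPM with INDY, against 110.2 ± 1.41 CPM with DMSO (log2 fold change -1.76, SE 0.061, edgeR adjusted p = 1.52e-14), and with a log2 fold change of -0.60 with harmine. DNAJA4 was also lower with both (-0.81 with INDY and -0.81 with harmine), and DNAJC6, the auxilin that uncoats clathrin with HSP70, was higher with INDY, at 15.3 ± 1.33 CPM against 7.14 ± 0.644 CPM with DMSO. Between the vehicles 1 of these genes was called, DNAJC13, lower with DMSO.

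HSP90 and its co-chaperones held 8 higher and 4 lower genes of 15 with INDY (median 0.15), and 4 higher and 2 lower with harmine (median 0.03). CHORDC1, a heat-inducible HSP90 partner, was higher with INDY, at 93.7 ± 5.58 CPM against 62.8 ± 1.75 CPM with DMSO (log2 fold change 0.58, SE 0.043, edgeR adjusted p = 5.41e-10), and lower with harmine, at 56.3 ± 1.82 CPM against 70.4 ± 3.42 CPM with water (log2 fold change -0.32, SE 0.043, edgeR adjusted p = 3.70e-06). The immunophilins PPID and FKBP5 were lower with INDY (-0.60 and -0.53), and FKBP5 was lower with harmine too (-0.22). HSP90AB1, the constitutive paralogue of HSP90AA1, was not called with INDY (log2 fold change -0.08, SE 0.039, edgeR adjusted p = 0.0571) or with harmine (log2 fold change -0.07, SE 0.039, edgeR adjusted p = 0.151); it is named here after its values were seen.

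Of the small heat shock proteins beside HSPB1, only CRYAB and HSPB8 passed the filter, out of 8. HSPB8, the partner of BAG3 in chaperone-assisted autophagy, fell with harmine to 16.4 ± 0.294 CPM, against 57.5 ± 7.96 CPM with water (log2 fold change -1.81, SE 0.110, edgeR adjusted p = 1.37e-10), while BAG3 rose. With INDY HSPB8 had 51.7 ± 9.81 CPM, against 48.7 ± 3.08 CPM with DMSO, and was not called. CRYAB was low and lower with both compounds (-0.61 with harmine and -0.45 with INDY), and its INDY call was lost without any of DMSO libraries 2, 3 and 4 or INDY libraries 1, 3 and 4 (-0.54 to -0.40 over all single removals). Among 6 other nucleotide exchange factors, 4 were higher and 1 lower with INDY, and 1 was higher and 2 lower with harmine. BAG1 had 96.1 ± 13.5 CPM with INDY, against 48.4 ± 1.21 CPM with DMSO (log2 fold change 0.99, SE 0.067, edgeR adjusted p = 1.42e-10), and was lower with harmine (-0.37). HSPBP1, BAG4 and BAG5 were the other genes higher with INDY (0.36, 0.21 and 0.21) and BAG6 the lower one (-0.22). With harmine HSPBP1 was higher (0.16) and BAG2 lower (-0.47), and the HSPBP1 call was lost without any of water libraries 2, 3 and 4 or harmine libraries 2 and 4 (0.12 to 0.18 over all single removals).

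The chaperonin CCT, which folds actin and tubulin, and its partner prefoldin held 9 higher and 2 lower of 14 genes with INDY (median 0.15) and 6 higher and 4 lower with harmine (median 0.05). CCT7 was higher with both, at 396 ± 20.2 CPM with INDY, against 266 ± 11.4 CPM with DMSO (log2 fold change 0.58, SE 0.040, edgeR adjusted p = 2.42e-10), and 344 ± 2.04 CPM with harmine, against 279 ± 14.6 CPM with water (log2 fold change 0.30, SE 0.040, edgeR adjusted p = 3.76e-06). CCT3 rose with INDY (0.37), and the prefoldin subunit PFDN4 fell with harmine (-0.27). Of the other heat shock factors and their binding proteins, 4 of 6 passed the filter. HSBP1, which binds HSF1 trimers, was higher with INDY, at 175 ± 11.6 CPM against 131 ± 1.56 CPM with DMSO (log2 fold change 0.42, SE 0.041, edgeR adjusted p = 2.52e-08), and was not called with harmine (0.10). HSFX1, an X-linked gene of the factor family, was low and higher with both compounds, at 4.61 ± 0.663 CPM with INDY, against 1.135 ± 0.142 CPM with DMSO (log2 fold change 2.02, SE 0.133, edgeR adjusted p = 1.06e-10), and 0.51 with harmine. Its harmine and water libraries overlapped, and the harmine call was lost without any of water libraries 2, 3 and 4 or harmine libraries 1, 2 and 3 (0.42 to 0.60 over all single removals). HSF2 and HSF4, named after their values were seen, were not called with either compound, so HSF1 was not the only factor left uncalled with INDY.

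**Figure D4:**
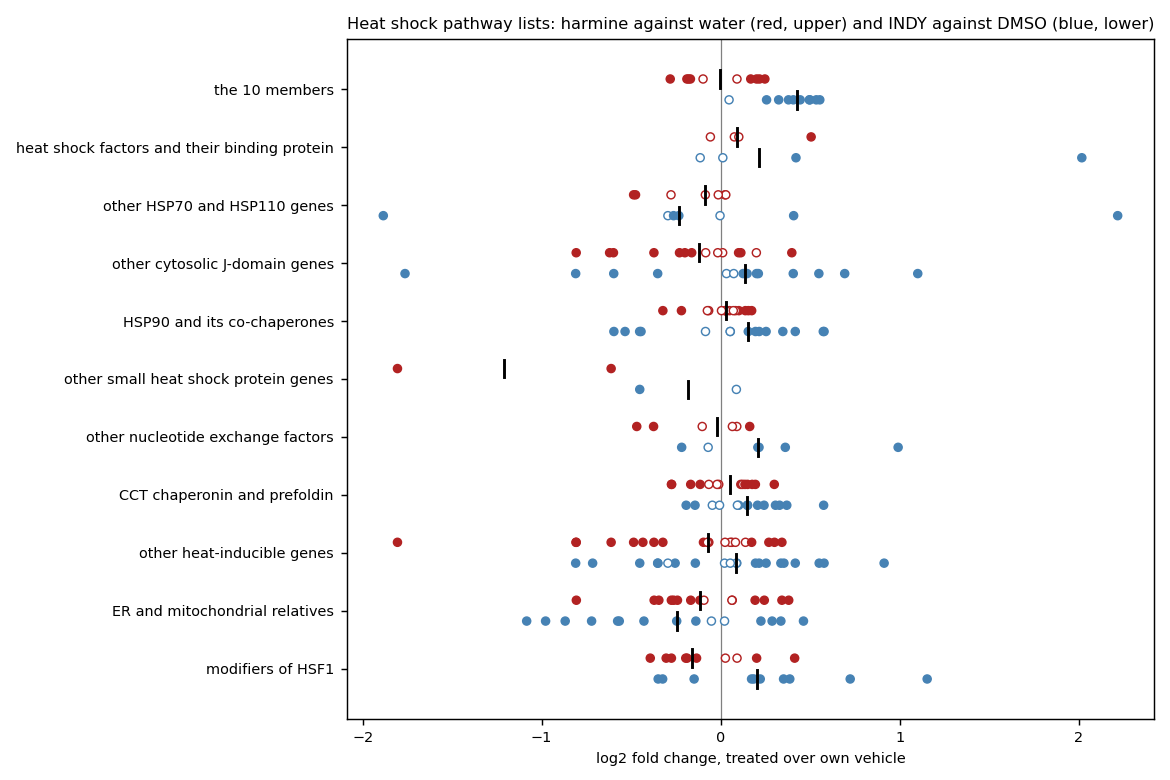
Each row is a list of genes, each point a tested gene's log2 fold change over its own vehicle (red, upper, harmine against water; blue, lower, INDY against DMSO), filled where called, with a black bar at the median. The 10 genes cluster at 0.05 to 0.55 with INDY (median 0.43), whereas the points of most other lists spread to both sides of 0.

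Over the 16 libraries, several genes had profiles very like those described, given here as Pearson correlations of log2 CPM among 12451 protein-coding genes, whose points share libraries and 4 groups. HSF1 was most like ZYX (0.978), PCBP2 (0.966) and GIT1 (0.964). None of the other 9 genes was among these nearest, and the same held for each gene below except HSP90AA1. HSPH1 was most like PXN (0.993), PIP5K1A and CPA4, and HSPA8 was most like PLK1 (0.986), RBM18 and KIAA0586. DNAJB1 was most like PPP1CA (0.994) and the tubulin genes TUBB2A (0.991) and TUBA1A (0.990), and HSP90AA1 was most like TUBA1B (0.988), LMO7 and DNAJB1 itself (0.986). DNAJA1 was most like GTF2E2 (0.989), TRIP12 and BTN2A1. HSPA1A was most like MAGEA1 (0.985), FIP1L1 and SNU13, and HSPA1B most like CDC20 (0.984), KPNA2 and PLEKHA5. HSPB1 was most like CCDC124, R3HCC1 and RNF126 (0.972 each), and BAG3 most like BRF1 (0.987), CDK11B and INCENP. Between the genes themselves, HSPA8, DNAJB1 and HSP90AA1 correlated at 0.963 to 0.986, HSPA1A and BAG3 at 0.948, and HSF1 with the others at between -0.477 and 0.308.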

How the data were processed

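Groups and replicate numbers were taken from the sample labels. The authors deposited 1 table of estimated counts per gene, made with Salmon 1.1 on GENCODE 37 transcripts of GRCh38 and summed to genes with tximport. Their processing notes also name edgeR 3.28.1. The table covers paired reads of 100 nt at a depth stated in the labels. Between 27.7% and 31.9% of all values, zeros included, per library were not whole (tolerance 1e-06), and all were rounded.

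Counts were filtered with filterByExpr (20446 of 59081 genes kept) and scaled by TMM (factors 0.982 to 1.022). Tests used edgeR 4.0.16 (R 4.3.3, limma 3.58.1) in a single quasi-likelihood model of 4 groups with 12 residual degrees of freedom, and p-values were adjusted by Benjamini-Hochberg over all tested genes, with a threshold of 0.01. CPM are TMM-normalized, and log2 CPM used a prior count of 2. SE is the absolute log2 fold change over the square root of F, and intervals are 95%. The scripts were tested on simulated data. Alternatives were DESeq2 1.42.0, limma voom, upper-quartile and DESeq2 size factors, no filter, at least 10 counts in every library, only the 8 libraries compared, a replicate block, an adjusted p of 0.05, a fold of 1.5, leaving out each library, and, chosen after seeing the data, using only 2 water or 2 INDY libraries.

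The 10 genes and the pathway lists (written from general knowledge) were chosen with earlier results of these data known. Beyond the 10 genes, the text names from each list the 2 genes with the largest effect for each compound and all called genes where 5 or fewer were called, and the 3 genes most like each of the 10; HSP90AB1, HSF2 and HSF4 were named outside this rule. Sequences were read from the GRCh38 genome at starts of MANE transcripts in GENCODE 44. Of the table's genes, 56629 matched GENCODE 44 by identifier, 2227 by symbol and 225 not at all. Whether replicates were separate cultures is not stated, so the p-values rest on variation among libraries that could be technical in part. No pair of libraries agreed within sampling noise.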

Additional observations from a re-analysis of the deposited data

Results flagged for a closer look

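All 10 differences between the compounds' effects (harmine effect minus INDY effect, log2 scale) passed the test of the difference itself in the edgeR model. The value was 0.20 for HSF1, -0.32 for HSPA1A, -0.40 for HSPA1B, -0.42 for HSPA8 and -0.84 for HSPH1. It was -0.43 for DNAJA1, -0.63 for DNAJB1, -0.59 for HSP90AA1, -0.21 for HSPB1 and -0.30 for BAG3. Adjusted p-values ran from 9.38e-10 (DNAJB1) to 0.00447 (HSPB1).

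Of 40 sets of libraries (10 genes in 4 groups), 4 held a library far from the other 3, by Dixon's test, which chance gives in about 1 of 20 sets. HSF1 had 251.4 CPM in water library 4, against 236 to 239 CPM in the other water libraries. HSP90AA1 had 1170.1 CPM in harmine library 1, against 1094 to 1106 CPM in the other harmine libraries. BAG3 had 69.3 CPM in harmine library 4, against 64.9 to 65.3 CPM in the other harmine libraries, and 58.6 CPM in water library 2, against 57.0 to 57.2 CPM in the other water libraries. None of these 4 libraries' removal ended a call of the gene concerned.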

How the results depend on the processing

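The 9 higher genes with INDY kept that count in every alternative but the 1.5-fold minimum, where it was 0. That minimum also left 0 higher and 0 lower genes with harmine, 0 higher and 3 lower for the difference of the effects, 0 higher and 7 lower pathway genes with harmine, and 8 higher and 10 lower pathway genes with INDY, and it ended the calls of the summed HSPA1A and HSPA1B (0.17 with harmine, 0.52 with INDY). The summed copies also lost the harmine call with upper-quartile factors (0.15), in the fit of 8 libraries (0.15) and with only water libraries 2 and 3 (0.0549), and ranged from 0.12 to 0.19 when single libraries were left out (0.50 to 0.53 with INDY). With only water libraries 1 and 4, the count of genes with a higher difference of effects was 0, and between DMSO and water 3 were higher and 1 lower. Between DMSO and water, 1 was higher and 1 lower with only INDY libraries 2 and 4, 1 was higher with DESeq2, 2 were higher at an adjusted p of 0.05, and 0 to 1 were higher when single libraries were left out. Pathway genes higher with harmine numbered 12 with only water libraries 2 and 3, and 15 to 24 when single libraries were left out, the lowest without harmine library 2.

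Signs turned only for log2 fold changes that were not called in the fit reported. With harmine these were HSPA1B (-0.0419), HSPA12A (0.00087) and PPID (-0.0066) with only water libraries 2 and 3, and HSPA2 (0.26), HSPA4 (-0.0034) and HSPA14 (0.0022) with only water libraries 1 and 4. With INDY they were HSPA13 with DESeq2 (0.00108), DESeq2 size factors (0.00119) and only INDY libraries 1 and 3 (0.0235), and HSPB8 with only INDY libraries 2 and 4 (-0.14). Between DMSO and water they were HSPA1A (-0.0812) and the summed copies (-0.0454) with only water libraries 2 and 3. Leaving out single libraries gave ranges across 0 for HSPA1L (-0.0340 to 0.0662), HSPA2 (-0.58 to 0.17) and HSPA14 (-0.0531 to 0.00383) with harmine, HSPA13 (-0.0304 to 0.0175) and HSPB8 (-0.0377 to 0.167) with INDY, and HSPA1A (-0.0249 to 0.0532) between the vehicles. The cause of these changes was not tested. Same-numbered libraries showed no clear shared deviation (correlations of -0.05 to 0.09), which cannot settle whether the numbers pair the samples. With a replicate block, harmine had 4 higher and 4 lower genes and INDY 9 higher and 0 lower ones, and no call among the 10 changed. Depth did not limit the 10 genes, whose lowest mean was 57.5 CPM, whereas HSPA2 rested on 14 to 66 estimated counts a group.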

Other observations

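Relatives of the cytosolic chaperones work in other compartments. Of 15 genes of the endoplasmic reticulum and mitochondria, 4 were higher and 9 lower with INDY (median log2 fold change -0.25), and 4 were higher and 8 lower with harmine (median -0.12). Over all tested genes, 33.2% were higher and 33.4% lower with INDY, and 24.9% and 22.8% with harmine. HSPA5 (BiP), the HSP70 of the endoplasmic reticulum, had 356 ± 8.44 CPM with INDY, against 702 ± 16.2 CPM with DMSO (log2 fold change -0.98, SE 0.026, edgeR adjusted p = 3.17e-16), and 406 ± 1.74 CPM with harmine, against 711 ± 15.7 CPM with water (log2 fold change -0.81, SE 0.025, edgeR adjusted p = 4.00e-14). BiP thus fell with both compounds, while HSPA1A rose with both. The harmine call of HSPA1A summed with its copy HSPA1B depended on the libraries used, as given above. SIL1, the exchange factor of BiP, fell with INDY to 15.5 ± 1.32 CPM, against 32.8 ± 0.860 CPM with DMSO (log2 fold change -1.08, SE 0.056, edgeR adjusted p = 3.34e-12). The mitochondrial J-domain gene DNAJA3 was higher with both (0.46 with INDY and 0.38 with harmine).

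Of 10 genes whose products are known to modify, bind or regulate HSF1, 7 were higher and 3 lower with INDY (median 0.20), and 2 were higher and 6 lower with harmine (median -0.16). The shares over all tested genes were 33.2% higher and 33.4% lower with INDY, and 24.9% and 22.8% with harmine. FBXW7, part of the ubiquitin ligase that marks HSF1 for degradation, was higher with both, at 46.1 ± 3.47 CPM with INDY, against 20.7 ± 0.637 CPM with DMSO (log2 fold change 1.15, SE 0.061, edgeR adjusted p = 4.74e-12), and 29.8 ± 2.50 CPM with harmine, against 22.4 ± 1.25 CPM with water (log2 fold change 0.41, SE 0.061, edgeR adjusted p = 1.20e-05). PLK1, a mitotic kinase that phosphorylates HSF1, was higher with INDY (0.72) and lower with harmine (-0.19). Its harmine and water libraries overlapped, and the harmine call was lost without any of water libraries 1, 2 and 3, harmine libraries 1, 3 and 4 or DMSO library 4 (-0.24 to -0.16 over all single removals). VCP, a segregase, was lower with both (-0.15 with INDY and -0.39 with harmine). No protein or HSF1 activity was measured.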
